A study of Mus musculus with 24 samples.

Results

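Phgdh, Psat1, Psph, Shmt2, Mthfd2, Aldh1l2, Aldh18a1, Pycr1, Asns and Pck2 encode enzymes of serine, proline and asparagine synthesis, of mitochondrial one-carbon metabolism and of mitochondrial phosphoenolpyruvate formation. These 10 genes were chosen by name for these roles, with earlier results of these data known. They were among the 55385 gene identifiers that were counted, and each was found by its GENCODE symbol. Hippocampal RNA of 24 Tsc1 fl/fl mice was sequenced to follow gene expression from the loss of Tsc1 through the first seizures to established epilepsy, with 1 library per mouse and 4 mice in each of 6 groups. The mice were of both sexes and 16 to 22 weeks old, and all of them received 4 tamoxifen injections. Tsc1-Cre+ mice carry a transgene in which Camk2a regulatory sequence drives a Cre recombinase that tamoxifen activates, which removes Tsc1 from CAMK2A-expressing neurons. Control littermates without Cre (Tsc1-Cre-) kept the gene and were taken on day 8. Tsc1-Cre+ mice were taken on day 4, day 6, day 8 (when the first mice of this model show seizures) or day 13, counted from the start of the tamoxifen injections. Whether the sequenced day 8 mice had seizures is not stated. Tsc1-Cre+-Rap 4 mice received 10 mg/kg rapamycin, an inhibitor of the kinase complex mTORC1, every day from day 4 and were taken on day 13.

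Tsc1-Cre- control libraries held between 50460565 and 61083014 counts, day 4 libraries between 56239855 and 60914278, day 6 libraries between 51363380 and 62429111, and day 8 libraries between 53564370 and 59124484. Day 13 libraries spread more widely, between 38423852 and 126435936, and the Tsc1-Cre+-Rap 4 libraries held between 28208561 and 54924199. The least abundant of the 10 genes, Pycr1, still had at least 54 counts in every mouse. The deposited samples are numbered in 12 series, whose meaning the labels do not state, of which controls and day 8 share 2 (A and B in 1, C and D in the other). The other groups lie in other series, so that time or treatment and number series cannot be told apart for them. Tsc1 itself was at 109, 103, 106 and 103 CPM (counts corrected for sequencing depth, after TMM scaling) in control mice A, B, C and D, and no Tsc1-Cre+ mouse was above 81.7 CPM. The hippocampus also holds cells in which this Cre is not active. In such bulk tissue a higher level of an RNA in some cells and a larger number of cells that carry it cannot be told apart.

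Serine is built from the glycolytic intermediate 3-phosphoglycerate by PHGDH, PSAT1 and PSPH in turn, and in the brain this route is known mainly from astrocytes, which supply neurons with serine. The mitochondrial enzyme SHMT2 moves a carbon unit from serine to tetrahydrofolate, MTHFD2 and ALDH1L2 oxidize that unit further, ALDH18A1 and PYCR1 make proline from glutamate, ASNS makes asparagine from aspartate, and PCK2 makes phosphoenolpyruvate in mitochondria. Several of these genes are textbook targets of ATF4, a transcription factor whose translation increases when eIF2 is phosphorylated and which mTORC1 also promotes.

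ATF4 binds, with a C/EBP partner, elements that read TGATGNAA on either strand (TTNCATCA when read on the other strand). This spelling was looked for in RefSeq promoter windows of GRCm38.p6. The windows ran from 250 bases before to 50 bases after each start. Windows were given for 9 of the 10 genes, and 3 genes had a match, shown here 5′ to 3′ on the strand of the gene with the match in capitals.
Pycr1, chr11:120643814-120643881, minus strand: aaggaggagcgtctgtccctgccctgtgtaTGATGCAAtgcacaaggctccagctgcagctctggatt
Asns, chr6:7693210-7693262, minus strand: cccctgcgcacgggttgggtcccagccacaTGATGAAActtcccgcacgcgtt
Pck2, chr14:55540133-55540200, plus strand: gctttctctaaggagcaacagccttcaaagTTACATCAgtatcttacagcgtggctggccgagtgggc
The first base of the match lay at -103 from the start in Pycr1, -23 in Asns and -103 in Pck2, where the element is on the other strand and reads TGATGTAA. Among all windows, 1304 of 32851 (3.97%) had a match, and counted by gene 1219 of 27025 (4.51%) had a match. These matches describe the letters of a window and not binding, and in the windows of Phgdh, Psat1, Psph, Shmt2, Mthfd2 and Aldh18a1 the spelling was not present.

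Levels were first compared between genes per exon length, as RPKM from the TMM-scaled counts. In Tsc1-Cre- mice, Asns (20.4 ± 0.382 RPKM, mean ± SD, n = 4 mice) and Psat1 (20.2 ± 1.56) were highest and overlapped, followed by Phgdh (16.9 ± 1.19), and the next gene, Aldh18a1, was at 4.67 RPKM. Pck2 (3.82), Shmt2 (3.26), Psph (2.91), Mthfd2 (1.36), Aldh1l2 (0.851) and Pycr1 (0.423 RPKM) came next, each without overlap between neighbours in that order. The order of the mean RPKM was the same in Tsc1-Cre+-Rap 4 mice, where Asns and Psat1, and each neighbour from Aldh18a1 down to Psph, overlapped. On day 13, Asns stood alone at 91.8 ± 24.2 RPKM, and Psat1 (29.3) and Phgdh (22.3) came next. Below them the mice overlapped from each gene to the next, from Psat1 down to Pck2 (4.36 RPKM). Genes farther apart in that order could still be separate, as Psph (10.9 to 19.8 RPKM) was from Aldh1l2 (1.78 to 10.8 RPKM).

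**Figure D1:**
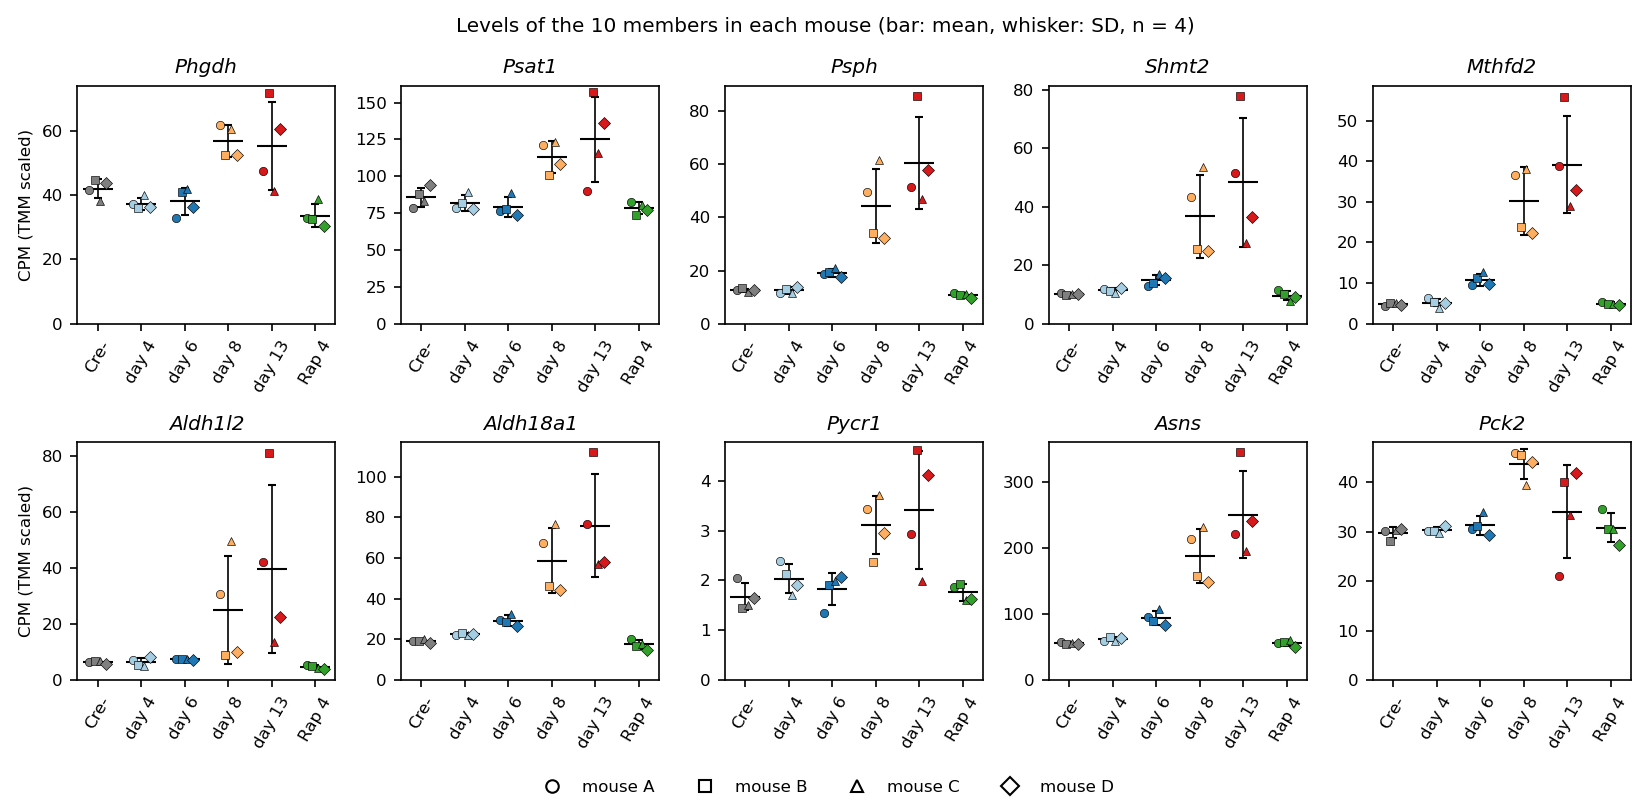
Level of each of the 10 genes in CPM (vertical axis, linear, from 0) in each of the 24 mice, by group, with the mean as a bar and the SD as a whisker (n = 4 mice). Mthfd2, Asns, Psph, Aldh18a1, Shmt2 and Aldh1l2 were above every control in all mice of days 6, 8 and 13, whereas all groups of Pck2 other than day 8 overlapped the controls.

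Phgdh (ENSMUSG00000053398.11, chr3:98313170-98339990, minus strand of GRCm38) encodes the dehydrogenase that opens the serine route. In mice A, B, C and D it was at 41.6, 44.8, 38.1 and 43.9 CPM in controls, 37.3, 36, 40.2 and 36.3 on day 4, 33, 40.9, 42.1 and 36.4 on day 6, 61.8, 52.5, 60.7 and 52.7 on day 8, 47.5, 72, 41.3 and 60.6 on day 13, and 32.9, 32.7, 38.8 and 30.5 in Tsc1-Cre+-Rap 4 mice. All day 8 mice lay above all controls, day 13 mouse C lay within the controls, and the day 4, day 6 and Rap 4 mice overlapped the controls from below. The log2 fold change against control was 0.42 on day 8 (SE 0.07, edgeR adjusted p = 0.00422), under the minimum of 0.5 that a call needs beside an adjusted p under 0.05, and 0.37 on day 13 (SE 0.15, edgeR adjusted p = 0.0917). Without day 13 mouse C it was 0.51 and would have been called (edgeR adjusted p = 0.017, range over 14 alternatives 0.0118 to 0.21).

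Psat1, the aminotransferase of the route, ranged from 78.4 to 93.8 CPM in controls, 77.6 to 89.5 on day 4, 73.4 to 88.6 on day 6, 101 to 123 on day 8, 89.7 to 157 on day 13 and 73.7 to 82.2 CPM in Tsc1-Cre+-Rap 4 mice. Here too all day 8 mice were above all controls, and the lowest day 13 mouse was not. The log2 fold change of Psat1 was 0.39 on day 8 (SE 0.08, edgeR adjusted p = 0.00775, not called) and 0.52 on day 13 (SE 0.15, edgeR adjusted p = 0.0278, called). The day 13 call of Psat1 was lost when any of control mice A, B, C or D or of day 13 mice B or D was left out. The log2 fold changes were then 0.48, 0.53, 0.50, 0.57, 0.40 and 0.47 in that order, with edgeR adjusted p from 0.0494 to 0.0775 (0.000505 to 0.0775 over 14 alternatives). This call was also lost, under the fold minimum, with the mouse letter as a block (0.49, edgeR adjusted p = 0.0207).

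Psph (ENSMUSG00000029446.14, chr5:129765558-129787449, minus strand) encodes the phosphatase that releases serine. It was at 12.5, 13.4, 12.1 and 12.5 CPM in controls, 11.4, 13.2, 11.5 and 13.9 on day 4, 18.8, 19.5, 21 and 17.4 on day 6, 49.6, 34, 61.7 and 32.4 on day 8, 51.6, 85.7, 47 and 58 on day 13, and 11.7, 10.6, 11 and 9.73 in Tsc1-Cre+-Rap 4 mice. Every day 6 mouse was above every control, every day 8 mouse above every day 6 mouse, and the Rap 4 mice were all below the controls. Psph rose by 0.59 on the log2 scale on day 6 (SE 0.07, edgeR adjusted p = 1.44e-04), 1.80 on day 8 (SE 0.18, edgeR adjusted p = 2.78e-04) and 2.24 on day 13 (SE 0.17, edgeR adjusted p = 1.48e-04). The day 6 call of Psph was lost with edgeR on all 24 mice (0.60, adjusted p = 0.0889, range over 14 alternatives 1.16e-13 to 0.0889). The enzymes before it in the route, Phgdh and Psat1, had log2 fold changes of -0.15 and -0.13 on day 6 that were not called, and the difference between the genes was not tested. Exons of Psph share 452 bases (10.4% of its exonic bases) with Cct6a on the opposite strand, and since the strand setting of the counting is not stated, reads there may belong to either gene. Controls had 110 ± 3.61 CPM of Cct6a, day 6 mice 132 ± 5.58, day 8 mice 139 ± 7.68 and day 13 mice 160 ± 24.6 CPM, and it was called on day 13 (log2 fold change 0.52) and not on day 6 (0.25, edgeR adjusted p = 0.00126) or day 8 (0.33), both under the fold minimum. On day 6 all its mice were above all controls, and its part in the Psph counts was not tested.

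Shmt2, which encodes the mitochondrial serine hydroxymethyltransferase, ranged from 9.91 to 10.5 CPM in controls, 10.6 to 12.3 on day 4, 13 to 16.9 on day 6, 24.7 to 53.7 on day 8, 27.6 to 77.8 on day 13 and 7.78 to 11.6 CPM in Tsc1-Cre+-Rap 4 mice. No mouse of days 4, 6, 8 or 13 overlapped the controls. It rose by 0.55 on day 6 (SE 0.08, edgeR adjusted p = 0.0011), 1.84 on day 8 (SE 0.22, edgeR adjusted p = 6.53e-04) and 2.23 on day 13 (SE 0.27, edgeR adjusted p = 8.69e-04). The day 6 call of Shmt2 was lost without day 6 mouse C (0.48), with Xist as a covariate (0.46) and with edgeR on all 24 mice (0.56, adjusted p = 0.317, range over 14 alternatives 2.75e-08 to 0.317). Xist is an RNA of female cells and was above 10 CPM in 3 control mice and 1 day 6 mouse. The day 4 value of 0.18 was not called (SE 0.07, edgeR adjusted p = 0.18).

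Mthfd2 (ENSMUSG00000005667.8, chr6:83305691-83325908, minus strand) encodes the mitochondrial methylenetetrahydrofolate dehydrogenase and cyclohydrolase, known from embryonic and proliferating cells. In mice A, B, C and D it was at 4.37, 4.99, 5.16 and 4.5 CPM in controls, 6.27, 5.45, 3.93 and 5.1 on day 4, 9.57, 11.3, 12.8 and 9.66 on day 6, 36.7, 23.9, 38 and 22.3 on day 8, 38.7, 55.9, 29 and 32.9 on day 13, and 5.41, 4.87, 4.81 and 4.69 in Tsc1-Cre+-Rap 4 mice. Controls, day 6 and day 8 formed separate ranges, day 13 overlapped day 8, and day 4 and Rap 4 overlapped the controls. Among the 10 genes Mthfd2 had the largest log2 fold change on day 6 (1.18, SE 0.10, edgeR adjusted p = 2.32e-05), on day 8 (2.65, SE 0.18, edgeR adjusted p = 2.06e-05) and on day 13 (3.02, SE 0.19, edgeR adjusted p = 8.30e-05).

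Aldh1l2 (ENSMUSG00000020256.14, chr10:83487450-83534140, minus strand) encodes the mitochondrial 10-formyltetrahydrofolate dehydrogenase. It was at 6.27, 6.81, 6.78 and 5.67 CPM in controls, 7, 5.45, 5.01 and 8.34 on day 4, 7.53, 7.63, 7.46 and 7.18 on day 6, 30.6, 8.78, 49.6 and 10.1 on day 8, 42.2, 81, 13.4 and 22.4 on day 13, and 5.27, 5.03, 4.41 and 4.06 in Tsc1-Cre+-Rap 4 mice. Day 8 mice A and C were far above day 8 mice B and D, which lay just above the highest control, and every Rap 4 mouse lay below every control. Aldh1l2 rose by 1.94 on day 8 (SE 0.47, edgeR adjusted p = 0.0211) and 2.61 on day 13 (SE 0.46, edgeR adjusted p = 0.00417), and its day 6 value of 0.21 was not called (SE 0.08, edgeR adjusted p = 0.127). The day 8 call of Aldh1l2 was lost without control mouse A, B, C or D or day 8 mouse A (log2 fold changes 1.93, 1.97, 1.97, 1.89 and 1.82, edgeR adjusted p from 0.0555 to 0.0675, and from 0.00464 to 0.0675 over 15 alternatives), and its log2 fold change was 1.35 without day 8 mouse C. Its day 13 value was 2.02 without day 13 mouse B and 2.00 with Xist as a covariate. Its exons share 1056 bases (14.1% of them) with D10Wsu102e on the opposite strand, which was far more abundant, at 402 ± 15.8 CPM in controls, 431 ± 22.2 on day 8, 640 ± 169 on day 13 and 438 ± 21.9 in Tsc1-Cre+-Rap 4 mice. D10Wsu102e was called on day 13 (log2 fold change 0.65, edgeR adjusted p = 0.021) and not on day 8 (0.09). It was also called lower in Tsc1-Cre+-Rap 4 mice against day 13 (-0.54, edgeR adjusted p = 0.0365). The part of D10Wsu102e in the Aldh1l2 counts was not tested.

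Aldh18a1 (ENSMUSG00000025007.13, chr19:40550257-40588463, minus strand) encodes the synthase that turns glutamate into the precursor of proline and ornithine. It was at 18.9, 19.1, 20.1 and 18.1 CPM in controls, 22.1, 23.2, 22 and 22.8 on day 4, 29.5, 28.5, 32.5 and 26.4 on day 6, 67.4, 46, 76.9 and 44.4 on day 8, 76.7, 112, 56.9 and 58.2 on day 13, and 20.3, 16.9, 17.7 and 14.9 in Tsc1-Cre+-Rap 4 mice. Its 4 mice on day 4 were already above all controls, and the day 6 and day 8 mice lay higher again without overlap. The day 4 log2 fold change of 0.24 had an edgeR adjusted p of 0.0259 (SE 0.05) but stayed under the minimum of 0.5, and Aldh18a1 was called on day 6 (0.61, SE 0.06, edgeR adjusted p = 8.52e-05), day 8 (1.61, SE 0.16, edgeR adjusted p = 2.57e-04) and day 13 (1.97, SE 0.19, edgeR adjusted p = 3.91e-04). The day 6 call of Aldh18a1 was lost with edgeR on all 24 mice (0.62, adjusted p = 0.0864, range over 14 alternatives 3.01e-16 to 0.0864). Pycr1, a reductase of the last step to proline, was the least abundant of the 10 genes, at 1.45 to 2.05 CPM in controls, 1.7 to 2.39 on day 4, 1.35 to 2.06 on day 6, 2.37 to 3.71 on day 8, 1.99 to 4.61 on day 13 and 1.6 to 1.93 CPM in Tsc1-Cre+-Rap 4 mice. Only its day 8 mice were all above the controls. Pycr1 rose by 0.89 on day 8 (SE 0.18, edgeR adjusted p = 0.00865) and 1.02 on day 13 (SE 0.25, edgeR adjusted p = 0.0169), and its day 13 call was lost without control mouse B (0.96, edgeR adjusted p = 0.0529) or C (0.97, edgeR adjusted p = 0.0551), where the 14 alternatives gave an adjusted p from 0.000319 to 0.0551.

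Asns (ENSMUSG00000029752.12, chr6:7675169-7693254, minus strand) encodes asparagine synthetase. In mice A, B, C and D it was at 57.1, 55.1, 56.3 and 55 CPM in controls, 59.8, 65.3, 59.4 and 63 on day 4, 95, 89.4, 108 and 83.7 on day 6, 214, 157, 232 and 148 on day 8, 221, 346, 196 and 241 on day 13, and 55.9, 57.1, 60.9 and 49.5 in Tsc1-Cre+-Rap 4 mice. As with Aldh18a1, all day 4 mice were above all controls, and the ranges of day 4, day 6 and day 8 did not overlap. Asns rose by 0.74 on day 6 (SE 0.06, edgeR adjusted p = 1.33e-05), 1.73 on day 8 (SE 0.13, edgeR adjusted p = 4.11e-05) and 2.14 on day 13 (SE 0.15, edgeR adjusted p = 1.22e-04). Its day 4 value was 0.15 (edgeR adjusted p = 0.055, not called).

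Pck2 (ENSMUSG00000040618.7, chr14:55540266-55551242, plus strand) encodes the mitochondrial phosphoenolpyruvate carboxykinase. It was at 30.1, 28.2, 30.4 and 30.6 CPM in controls, 30.2, 30.1, 29.8 and 31.1 on day 4, 30.6, 31.2, 34 and 29.4 on day 6, 46, 45.6, 39.4 and 44.2 on day 8, 21.1, 40, 33.3 and 41.9 on day 13, and 34.6, 30.6, 30.6 and 27.4 in Tsc1-Cre+-Rap 4 mice. All day 8 mice were above all controls, while on day 13 mouse A was below every control and mice B, C and D were above them. Pck2 rose on day 8 (log2 fold change 0.54, SE 0.06, edgeR adjusted p = 5.51e-04) and was not called on day 13 (0.17, SE 0.18, edgeR adjusted p = 0.51). Whether Pck2 differed between day 8 and day 13 was tested directly and not called (log2 fold change -0.38, SE 0.18, edgeR adjusted p = 0.385). Its cytosolic counterpart Pck1 had at most 9 counts in any mouse.

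**Figure D2:**
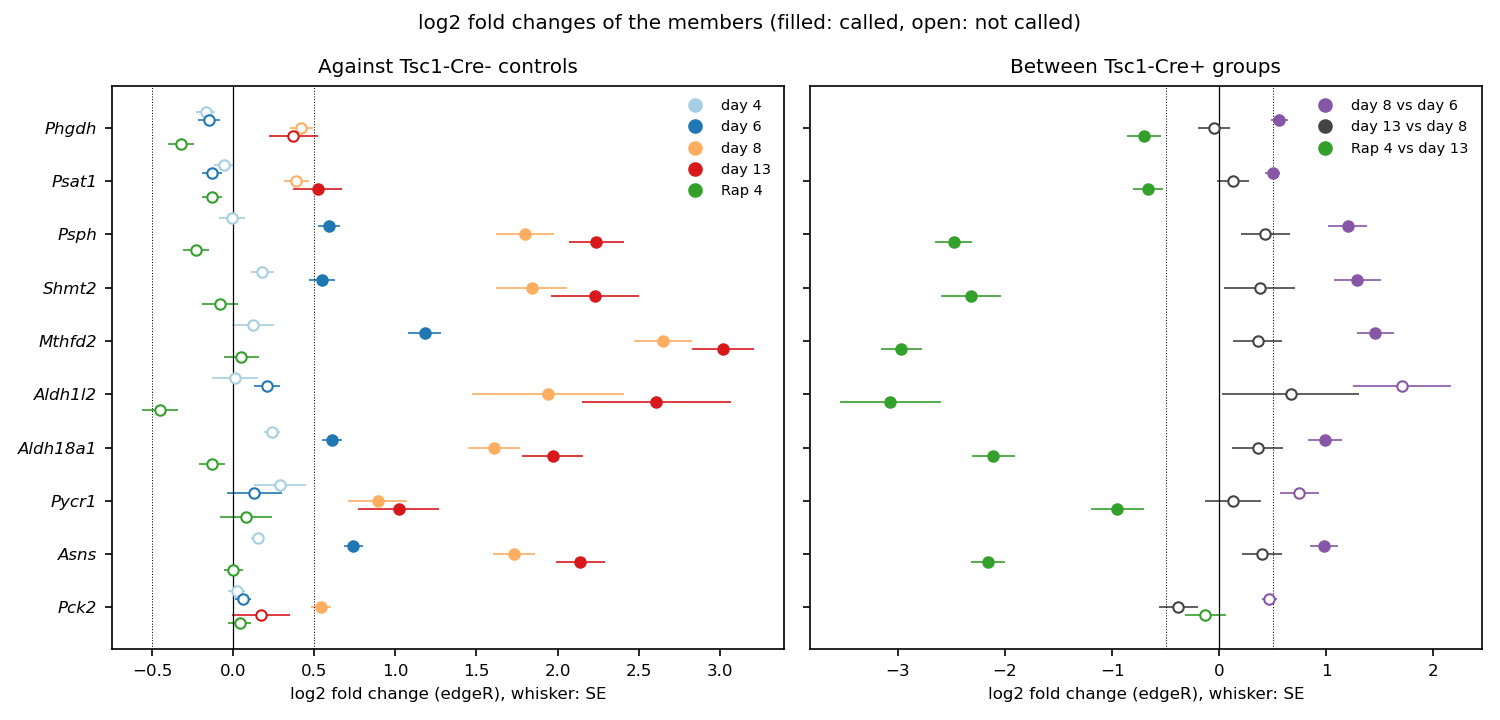
Log2 fold change of each of the 10 genes from edgeR (horizontal axis, whisker SE, 4 mice against 4) against Tsc1-Cre- controls (left) and between Tsc1-Cre+ groups (right); filled points were called, and dotted lines mark the minimum of 0.5 in either direction. Mthfd2 lies farthest right on days 6, 8 and 13, and 9 of 10 genes lie left of zero and are called for Rap 4 against day 13.

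Counted over the 10 genes, none was called on day 4 by edgeR, beside 0.680% of all genes tested (172 of 25308) that were called in either direction. An unadjusted p under 0.05 was found for 4 of the 10 and for 18.4% of all genes tested. DESeq2 also called none of them, with 4 at an unadjusted p under 0.05. The 4 day 4 mice lay above all controls for 3 genes, Shmt2, Aldh18a1 and Asns, as they did for 5.97% of all genes tested. On day 6, 5 of the 10 genes rose (Mthfd2, Asns, Aldh18a1, Psph and Shmt2), and 0.647% of all genes tested did so. The median log2 fold change of the 10 genes was 0.38, against -0.02 over all genes tested. On day 8, 8 of 10 rose beside 2.15% of all genes, with a median of 1.67 against -0.03, and all day 8 mice were above all controls for the 10 genes and for 12.4% of all genes tested. With the 2 sample series as a block, which can be fitted only for this comparison, the same count of 8 was called. On day 13, 8 of 10 rose beside 8.40% of all genes, with a median of 2.06 against -0.04. All day 13 mice were above all controls for 6 of the genes and for 17.1% of all genes tested, and the lowest day 13 mouse reached the controls for Phgdh, Psat1, Pycr1 and Pck2. These comparisons share the same 4 control mice, so their values stand side by side and are not independent of each other. Since the 10 genes were chosen with earlier results of these data known, the shares of all genes give a scale and not a test.

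The step from day 6 to day 8, from before seizures to when the first mice show them, was tested on the 8 mice of these groups. All 10 genes, and 6.35% of all genes tested, were higher in every day 8 mouse than in every day 6 mouse, with log2 fold changes from 0.47 for Pck2 to 1.71 for Aldh1l2 and a median of 0.99 against 0.00 over all genes tested. Here 7 genes rose (Mthfd2, Shmt2, Psph, Aldh18a1, Asns, Phgdh and Psat1) beside 0.181% of all genes tested (45 of 24871). Phgdh, at 0.56 (SE 0.08), and Psat1, at 0.50 (SE 0.07), had an edgeR adjusted p of 0.0262 each, and Mthfd2, at 1.46 (SE 0.17), had 0.0189. Aldh1l2 (edgeR adjusted p = 0.116), Pycr1 (0.088) and Pck2 (0.0262, under the fold minimum) were not called. The count fell to 0 when day 6 mouse A, B, C or D or day 8 mouse A was left out. It was also 0 when the level of Xist, an RNA of female cells, was a covariate. Xist was above 10 CPM in 1 day 6 mouse and 3 day 8 mice, so that the sexes were uneven between these groups. DESeq2 called 9, all higher, beside 195 of 40546 genes tested that rose. In the fits without a call the log2 fold change of Mthfd2 was between 1.36 and 1.55. Without day 8 mouse B, Aldh1l2 (1.99, edgeR adjusted p = 0.0423, range over 14 alternatives 0.0307 to 0.531) and Pycr1 (0.86, edgeR adjusted p = 0.0451, range 0.00568 to 0.296) were called as well. Without day 8 mouse D, Aldh1l2 was called at 1.97, and without day 8 mouse C, Pck2 was called at 0.52 and Psat1 no longer at 0.46. Over the 14 alternatives the adjusted p of Mthfd2 ran from 3.7e-14 to 0.176. Day 6 and day 8 mice came from different number series, so that the step in time and the series cannot be told apart.

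From day 8 to day 13, edgeR called 0 of the 10 genes and 0 of 24747 genes tested (0%). None of the 10 had an unadjusted p under 0.05, while 3479 of all genes did. DESeq2 called 238 genes and edgeR on all 24 mice 1343, none of them among the 10, of which 1 and 5 had an unadjusted p under 0.05. Log2 fold changes ranged from -0.38 for Pck2 to 0.67 for Aldh1l2 with SE of 0.18 and 0.64, and all 10 genes overlapped between the groups. Most other genes overlapped too, as 3.62% of all genes tested were higher and 3.42% lower in every day 13 mouse. Without day 13 mouse B, the value of Aldh1l2 was 0.07.

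Rapamycin mice carried the same deletion as the day 13 mice and were taken on the same day. Against day 13, 9 of the 10 genes fell beside 11.2% of all genes tested that did so, with a median log2 fold change of -2.13 against 0.02. The largest differences were in Aldh1l2 (-3.07, SE 0.47, edgeR adjusted p = 0.00166), Mthfd2 (-2.97, SE 0.19, edgeR adjusted p = 9.63e-05) and Psph (-2.48, SE 0.17, edgeR adjusted p = 9.63e-05). Phgdh (-0.70, SE 0.16, edgeR adjusted p = 0.00864) and Psat1 (-0.66, SE 0.14, edgeR adjusted p = 0.00755) were called here too. Pck2 was not called (-0.13, SE 0.19, edgeR adjusted p = 0.615), and it was the only one of the 10 genes whose mice overlapped (17.7% of all genes tested were lower in every Rap 4 mouse). Without day 13 mouse B the value of Aldh1l2 was -2.48, and without Rap 4 mouse D the call of Pycr1 (-0.95) was lost at -0.91 (edgeR adjusted p = 0.0521, range over 14 alternatives 0.000636 to 0.0521).

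Against Tsc1-Cre- controls, edgeR called none of the 10 genes in Tsc1-Cre+-Rap 4 mice, beside 1.41% of all genes tested (352 of 25006) in either direction, and DESeq2 called none as well. With either tool 4 of them had an unadjusted p under 0.05, as did 18.1% of all genes tested with edgeR. The median log2 fold change was -0.11 against 0.01 over all genes tested. Asns had a log2 fold change of 0.00 (SE 0.06) and Mthfd2 of 0.05 (SE 0.11), while Phgdh (-0.32, SE 0.08, edgeR adjusted p = 0.0356) and Aldh1l2 (-0.45, SE 0.11, edgeR adjusted p = 0.0486) passed the threshold on p and not that on size. Without Rap 4 mouse A, Aldh1l2 was at -0.50 and called (edgeR adjusted p = 0.0488, range over 14 alternatives 0.00493 to 0.768). Psph and Aldh1l2 were the genes for which all Rap 4 mice lay below all controls, as 6.2% of all genes tested did.

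Within a group, the same mice were high in many of the genes. On day 8, mouse C was highest in 8 of the 10 genes and mouse A in the other 2, mouse A was among the top 2 in all 10, and mouse B or D was lowest in 9. On day 13, mouse B was highest in 9 genes, all but Pck2, and mouse C lowest in 8. These were also the deepest and the shallowest library of day 13 (126435936 counts in B, 69971957 in A, 41101425 in D and 38423852 in C), and Mthfd2, Shmt2, Aldh1l2 and Aldh18a1 had the order B, A, D, C of the depths. The part of depth in this order was not tested. On day 8 the highest mouse of most genes, C, had the lowest depth of its group (53564370). Deviations from the group means were compared between genes over the 24 mice, as a description of points that share libraries. Pearson's r ranged from -0.0934 to 0.944 over the 45 pairs of genes, with a median of 0.647. Among the 6 genes with the largest day 13 fold changes (Mthfd2, Aldh1l2, Psph, Shmt2, Asns and Aldh18a1), a group picked after the values were seen, r was between 0.806 and 0.944 in all 15 pairs. The 9 pairs with Pck2 had a median of 0.263.

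Other genes of the same pathways were counted as lists. Over all genes tested with edgeR against control, 18.4%, 24.2%, 28.9% and 40.5% had an unadjusted p under 0.05 on days 4, 6, 8 and 13. On day 8 the median log2 fold change was 0.17 for serine and glycine, 0.18 for folate, -0.01 for proline, ornithine and glutamate, 0.15 for aspartate, asparagine and alanine, and 0.22 for phosphoenolpyruvate and citrate, beside 1.67 for the 10 genes and -0.03 over all genes tested. Of 12 other genes of serine and glycine metabolism, 3 rose on day 6 (Sds, a serine dehydratase, 0.68; Gcat 0.59; Shmt1, the cytosolic hydroxymethyltransferase, 0.53) and 3 on day 13 (Sds 1.54, Gcat 1.07 and Shmt1 0.54). On day 8, Gcat (1.26) and Sds (1.18) rose and Gldc, of the glycine cleavage system, fell by 0.68. Sds and Gcat were low, with at most 3.32 and 3.57 CPM in any mouse. Of 19 other genes of folate and one-carbon metabolism, none was called on day 6 by edgeR, with 6 at an unadjusted p under 0.05, and only Mthfd1l, the mitochondrial formyltetrahydrofolate synthetase, rose on day 8 (0.86, SE 0.09, edgeR adjusted p = 3.32e-04). On day 13, Mthfd1l (0.93), Mat2a (0.93) and Fpgs (0.63) were among the genes that rose, and Mthfs (-0.63) and Tyms (-0.59) fell.

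Isoenzymes of the same steps, picked from these lists after their values were seen, were set beside the 10 genes. Mthfd2l, a relative of Mthfd2, was at 8.82, 8.81, 9.64 and 9.83 CPM in control mice A, B, C and D and at 7.64, 7.79, 6.08 and 7.69 CPM on day 13, and its log2 fold changes of -0.23 on day 6, -0.25 on day 8 and -0.36 on day 13 were not called. Shmt1, the isoenzyme of Shmt2, was called on day 6 (0.53) and day 13 (0.54) and not on day 8 (0.46). Aldh1l1, the cytosolic counterpart of Aldh1l2 and an astrocyte marker, had log2 fold changes of -0.34, 0.21 and 0.35 on these days, none called against control, and it was called for day 8 against day 6 (0.54, SE 0.10, edgeR adjusted p = 0.0497), a call lost without day 6 mouse A, B, C or D or day 8 mouse A and with Xist as a covariate. The proline-degrading enzymes Prodh and Aldh4a1 were not called on any day, nor was the asparaginase Asrgl1. Asrgl1 was at 164 to 176 CPM in controls. All its mice of day 4 (143 to 160), day 6 (135 to 146) and day 8 (113 to 148) lay below them. So did 5.72%, 6.19% and 8.01% of all genes tested. Day 13 mice A, B, C and D had 65.9, 78.9, 167 and 174 CPM of Asrgl1 and 7.35, 8.33, 31.8 and 31.7 CPM of Prodh (controls 25.3 to 31.5). On day 4 Prodh was above all controls (34 to 44.4). Whether a gene and its isoenzyme differed in their change was not tested.

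**Figure D3:**
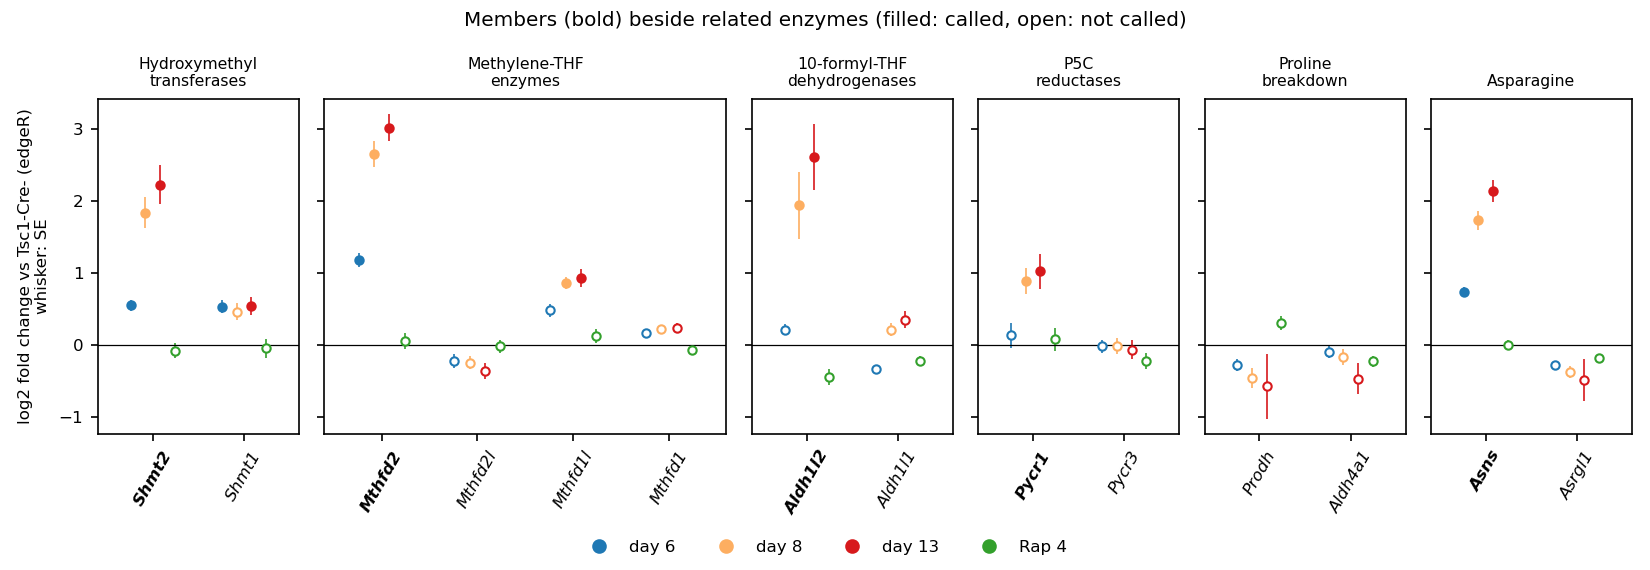
Log2 fold change against Tsc1-Cre- controls (vertical axis, edgeR, whisker SE, 4 mice against 4) of 5 of the 10 genes (bold) and of isoenzymes or enzymes of the reverse or neighbouring step; filled points were called. Mthfd2 reached 3.02 on day 13 while Mthfd2l was at -0.36, and Asns reached 2.14 while Asrgl1 was at -0.49.

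Of 11 other genes of proline, ornithine and glutamate metabolism, none was called on day 6 or day 8 by edgeR, with 5 and 3 at an unadjusted p under 0.05, and Odc1, the ornithine decarboxylase of polyamine synthesis, rose on day 13 (1.67, SE 0.39, edgeR adjusted p = 0.0127). Of 11 genes of aspartate, asparagine and alanine metabolism, Gpt2, the mitochondrial alanine aminotransferase, rose on day 8 (0.66) and day 13 (1.02), and Got2 rose on day 13 (0.58). Of 11 genes around phosphoenolpyruvate and citrate, Pklr, with at most 32 counts in any mouse and 0 to 0.0944 CPM in controls, was higher on day 4 (2.15, SE 0.55, edgeR adjusted p = 0.0476), Acly rose on day 8 (0.57) and day 13 (0.76), and Pkm (0.51) and Mdh2 (0.50) rose on day 13. None of the 5 genes of transsulfuration and glutathione synthesis was called in any of the 8 comparisons by edgeR, with at most 1 at an unadjusted p under 0.05. Against day 13, the genes called in rapamycin mice included lower Sds, Gcat and Shmt1, lower Fpgs, Mthfd1l, Mat2a and Aldh1l1, lower Odc1, Gpt2, Got2, Acly and Pkm, and higher Mthfs. In Tsc1-Cre+-Rap 4 mice against controls, edgeR called no gene of these 6 lists, with 3, 5, 3, 6, 2 and 1 at an unadjusted p under 0.05 in the order given.

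The ATF4-linked stress regulators were counted as a list of 12 genes. On day 6, 6 of them rose with a median log2 fold change of 0.49 (-0.02 over all genes tested), led by Chac1 (1.80), Trib3 (1.34) and Sesn2 (0.97). On day 8, 9 rose with a median of 1.56 (-0.03 over all), and on day 13 all 12 with a median of 2.21 (-0.04 over all). In rapamycin mice against day 13, 11 fell. Atf4 RNA, named after its values were seen, rose by 0.60 on day 6 (SE 0.05, edgeR adjusted p = 2.45e-05), 1.57 on day 8 and 1.96 on day 13. From day 6 to day 8, Chac1 (1.72), Sesn2 (1.03) and Atf4 (0.95) rose, but edgeR called 0 genes of any kind in this comparison without day 6 mouse A, B, C or D or day 8 mouse A, or with Xist as a covariate. Against controls, none of the 12 was called on day 4 or in Tsc1-Cre+-Rap 4 mice by edgeR, with 3 and 6 at an unadjusted p under 0.05.

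Astrocytes are a main site of serine synthesis, so their markers were set beside the 10 genes. Of 8 astrocyte markers, none was called higher against control by edgeR and Gja1 fell on day 8 (-0.56) and day 13 (-0.93), and the most abundant, Slc1a2, was not called. The summed level of these 8 markers was 5601 to 6202 CPM in controls, 5179 to 5512 on day 6, 4813 to 5526 on day 8 and 4279 to 6057 on day 13. All day 6 mice and all day 8 mice were thus below all controls in this sum, most of which is Slc1a2. Single markers differed from it, as day 8 mice A, B, C and D had 171, 106, 251 and 148 CPM of Aqp4 (controls 165 to 168) and 59.2, 47.7, 57.6 and 43.5 CPM of Aldh1l1 (controls 43.1 to 46.8). On day 6 edgeR called 0 of the 8, with a median log2 fold change of -0.23. An unadjusted p under 0.05 was found for 7 of them and for 24.2% of all genes tested. Of 5 reactive astrocyte genes, of which Gfap is the most abundant, Serpina3n rose on day 8 (1.42) and all 5 on day 13. Their summed level was 211, 266, 236 and 250 CPM in control mice A, B, C and D, 215, 193, 204 and 210 on day 6, 834, 177, 1131 and 217 on day 8, and 1153, 2204, 471 and 553 on day 13. The 10 genes together were at 262, 272, 263 and 276 CPM in the same controls, 315, 322, 365 and 301 on day 6, 674, 497, 739 and 489 on day 8, and 643, 1032, 562 and 691 on day 13. In the mice of day 6, and in day 8 mice B and D, the sum of the 10 genes was above the controls. That of the reactive astrocyte genes, most of it Gfap, was not, and the part of astrocytes in the 10 genes was not tested. Single genes differed from these sums. Serpina3n was at 19.9 to 26.5 CPM in controls, 26.6 to 33.5 on day 6 and 31.4 and 32.8 CPM in day 8 mice B and D. Only 6 of the 10 genes were above all controls in every day 6 mouse, as were 9.85% of all genes tested. The highest day 8 and day 13 mice, C and B, were highest for both.

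**Figure D4:**
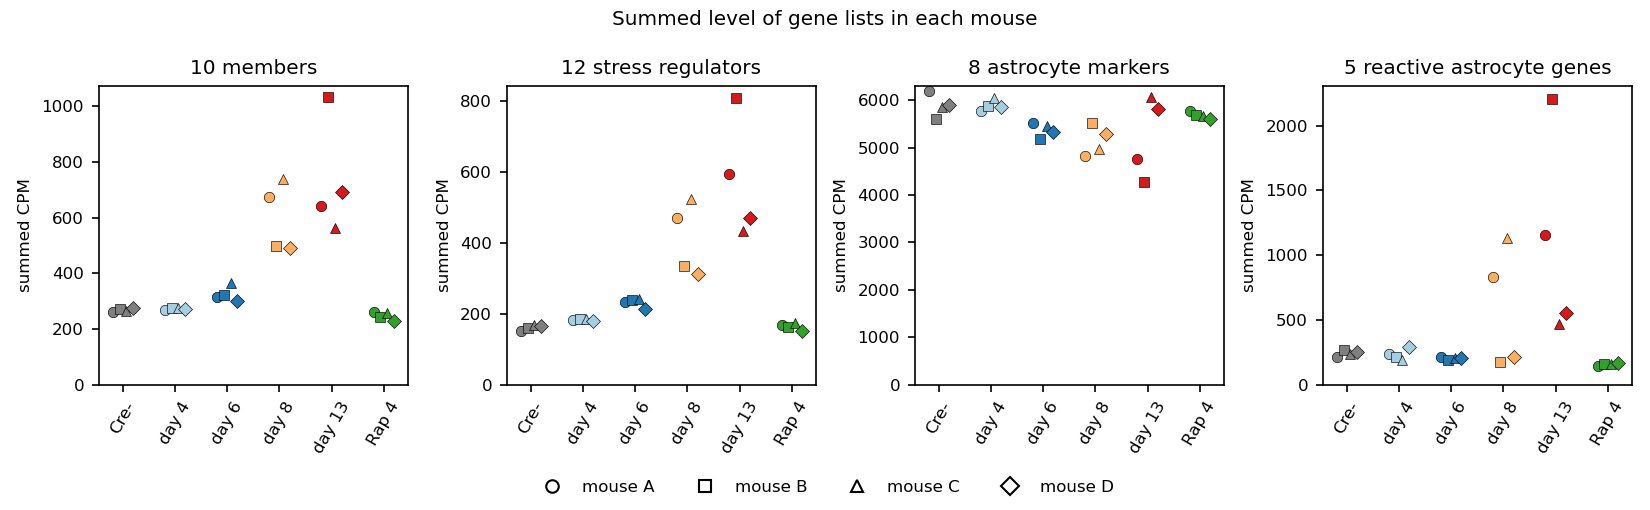
Summed CPM (vertical axis, linear, from 0) of the 10 genes, the 12 stress regulators, 8 astrocyte markers and 5 reactive astrocyte genes in each of the 24 mice, by group; symbols give the mouse. Day 8 mice B and D lie at 497 and 489 CPM for the 10 genes, above all controls, and at 177 and 217 CPM for the reactive astrocyte genes, within or below the control range.

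Markers of other cells were followed in the same way, and excitatory neuron markers were present in every mouse (summed level 2615 to 4035 CPM). Of 4 genes of dividing cells, of which Mki67 is the most abundant, 3 rose on day 8 (Top2a, Ccnb1 and Mki67) and 3 on day 13 (Ccnb1, Top2a and Cdk1), and their sum was 13.8 to 17.9 CPM in controls, 19.1 to 21 on day 6, 21.4 to 40.3 on day 8, 16.1 to 34 on day 13 and 9.28 to 11.6 CPM in Tsc1-Cre+-Rap 4 mice. On day 6, when edgeR called 0 of the 4 and 2 had an unadjusted p under 0.05, all mice were above all controls in this sum. Of 8 excitatory neuron markers, led by Camk2a, only Slc17a7 was called against control, on day 13 (0.73). None of 5 interneuron markers, led by Gad1, was called in any comparison by edgeR (at most 3 at an unadjusted p under 0.05), and of 7 microglia markers, led by Csf1r, C1qa rose on day 13 (0.72). Of 5 oligodendrocyte markers, led by Mbp, Cnp (-0.51) was among those that fell on day 8, while Pdgfra and Cspg4 of oligodendrocyte precursors were not called by edgeR (both at an unadjusted p under 0.05 on day 4). Blood markers, led by Hbb-bs, were lower on day 4, day 6 and day 13 (2, 2 and 3 of 3). None of 5 choroid plexus markers, led by Ttr, was called in any comparison by edgeR, with at most 2 at an unadjusted p under 0.05, and their sum ran from 37.4 to 1643 CPM between single mice. Of 5 vessel markers, led by Rgs5, edgeR called none on days 4, 6, 8 and 13, with 4, 4, 1 and 2 at an unadjusted p under 0.05. In rapamycin mice against day 13, 4 of 5 reactive astrocyte genes and 4 of 4 genes of dividing cells fell.

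In Tsc1-Cre+-Rap 4 mice against controls, edgeR called 2 of 8 astrocyte, 2 of 5 reactive astrocyte, 2 of 7 microglia, 1 of 5 vessel, 1 of 4 dividing cell and 1 of 3 blood markers, and some of the oligodendrocyte markers. Aqp4 (-0.72) and S100b (-0.54) of astrocytes, Gfap (-0.77), Aif1 (-0.67) and Cx3cr1 (-0.54) of microglia, Cnp (-0.66) and Mog (-0.59) of oligodendrocytes, Cldn5 (-0.68) of endothelium, Top2a (-1.93) of dividing cells and Hbb-bs (-0.80) of blood were lower, and Lcn2 (1.32) was higher. The part of any of these cell types in the levels of the 10 genes was not tested.

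Last, genes were ranked by how closely they followed the 10 genes. Each of 18259 genes with a mean of at least 1 CPM was correlated, over the 24 mice, with the mean z score of the 10 genes, as a description in which all points share libraries and groups. The 10 other genes with the highest Pearson's r were Aars, Mars, Xpot and Sars (0.982 each), Nars (0.981), Cyb5r1 (0.98), Lars and Gars (0.978 each), Yars (0.974) and Slc7a3 (0.973). Among the 10 genes themselves, which enter the score, r ran from 0.978 for Psph and 0.973 for Shmt2 and Asns down to 0.903 for Pycr1 and 0.629 for Pck2. Pck2 was in place 4045. Control mice had 123 ± 3.34 CPM of Aars (SD, n = 4 mice), day 6 mice 168 ± 11.5, day 8 mice 307 ± 72, day 13 mice 390 ± 79 and Tsc1-Cre+-Rap 4 mice 120 ± 8.14 CPM. Cyb5r1 was at 12.5 ± 0.855, 18.8 ± 4.04, 62.3 ± 25.1, 100 ± 38.1 and 12.3 ± 0.938 CPM in the same groups. These 10 other genes were chosen on the same 24 mice, so their calls follow largely from the choice. Of them, 3 rose on day 6, and all 10 rose both on day 8 and on day 13 and fell in rapamycin mice against day 13.

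**Figure D5:**
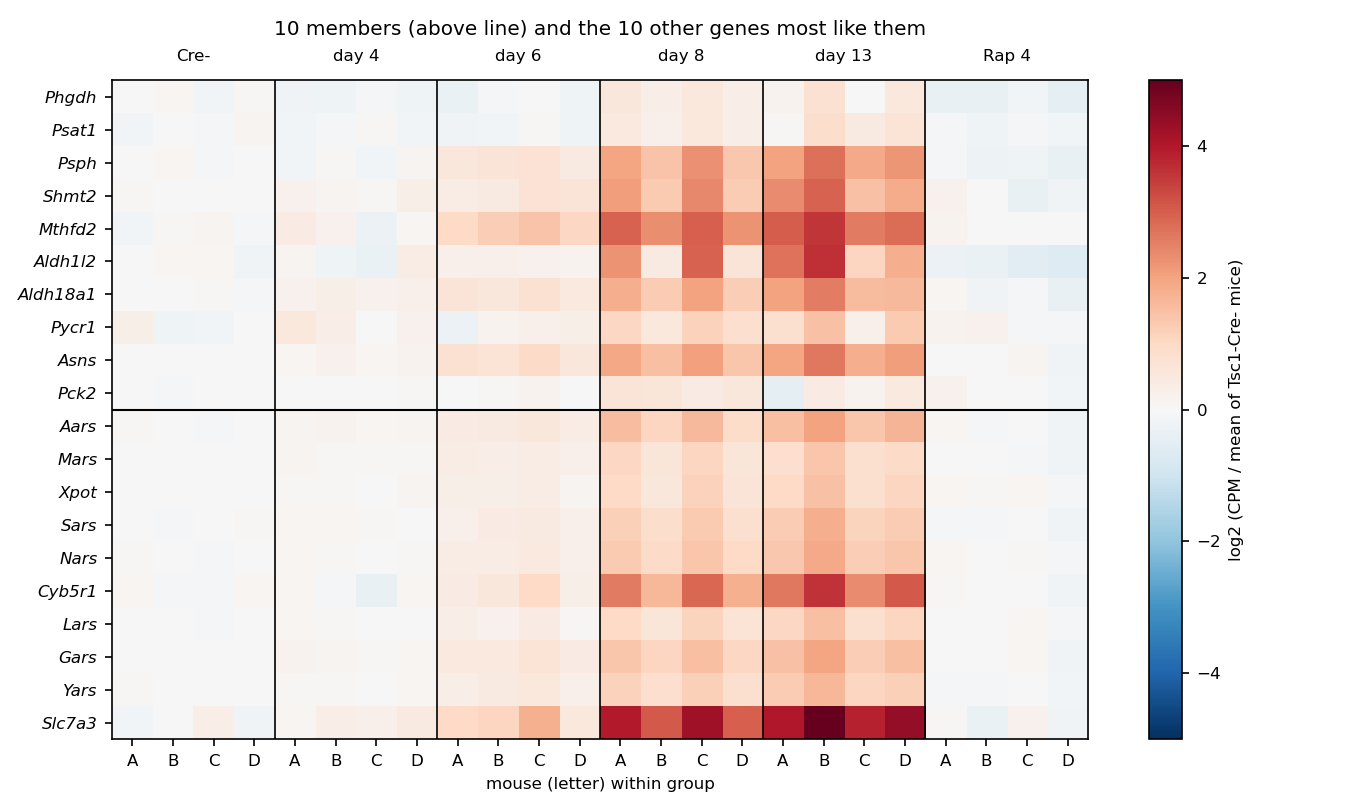
Log2 ratio of the CPM of each mouse to the mean of the 4 Tsc1-Cre- mice (colour) for the 10 genes (above the line) and the 10 other genes most correlated with their mean z score (below), in 24 mice by group (columns). The day 8 and day 13 columns are red for Mthfd2 (log2 fold change 3.02 on day 13) and faint for Phgdh, Psat1 and Pck2 (0.37, 0.52 and 0.17).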

How the data were processed

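The authors trimmed the reads with cutadapt 1.16.5, aligned them with STAR 2.7.2b to mm10 (GRCm38) and counted them per GENCODE gene with featureCounts 1.6.4, and they deposited whole-number counts without normalization, 1 library per mouse. The libraries were stranded, but the strand setting of the counting and its treatment of reads that align in several places are not given in the sources used here, so overlapping genes are reported as uncertain. Gene names, exon lengths and coordinates came from GENCODE M21, an earlier release than the authors used, which held 55144 of the 55385 identifiers.

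Groups and letters A to D came from the sample titles. For each of 8 comparisons, the counts of its 8 mice were tested with edgeR 4.0.16 in R 4.3.3 (filterByExpr, TMM, quasi-likelihood test, Benjamini-Hochberg over all genes tested), and a call needed a log2 fold change beyond 0.5 in either direction with an adjusted p below 0.05. SE is that of the log2 fold change. Tables and plots used Python 3.11.15, pandas 2.3.3, numpy 2.4.6 and matplotlib 3.10.9. The fits were tested on simulated data, where DESeq2 called more unchanged genes than edgeR, and the limit set for it there was widened after that was seen. All 10 genes were named in each comparison, with up to 3 called genes per pathway list, those with the largest change (the rest of a short list being named after its values were seen), the most abundant gene and any 3 or fewer called genes of each marker list, and the 10 genes most like the 10 by correlation. Some genes of the lists are not reported here. The 10 genes and the lists were chosen with earlier results of these data known.

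Alternatives were DESeq2 1.42.0, a single edgeR fit of the 24 mice, scaling by DESeq2 size factors within edgeR, omitting the filter, the letter as a block, Xist as a covariate, the sample series as a block on day 8, other fold minimums and each mouse left out in turn. Xist was above 10 CPM in 3, 1, 1, 3, 2 and 2 mice of the control, day 4, day 6, day 8, day 13 and Rap 4 groups. No libraries of 1 group were identical or alike within counting noise (36 pairs, lowest chi-square per degree of freedom 5.43). Promoter windows came from RefSeq on GRCm38.p6.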

Additional observations from a re-analysis of the deposited data

Results flagged for a closer look

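The difference between day 8 and day 6, each measured against the same controls, passed the direct test of day 8 against day 6 (edgeR, 4 mice against 4) for 7 of the 10 genes. The log2 fold changes were 0.56 for Phgdh, 0.50 for Psat1, 1.20 for Psph, 1.29 for Shmt2, 1.46 for Mthfd2, 0.99 for Aldh18a1 and 0.98 for Asns, with edgeR adjusted p from 0.0189 for Mthfd2 to 0.043 for Shmt2. None of the 7 was called by edgeR with Xist as a covariate, or without day 6 mouse A, B, C or D or day 8 mouse A. In the 5 fits without a mouse, Mthfd2 was at 1.40, 1.49, 1.55, 1.41 and 1.36 (adjusted p from 3.7e-14 to 0.176 over 14 alternatives). Psat1 was also not called without day 8 mouse C (0.46) or without the filter on low counts, where it lay just under the fold minimum. All 10 genes had an unadjusted p under 0.05 in this comparison with all mice, as did 17.1% of all genes tested with edgeR. DESeq2 called 9 of the 10, all higher, beside 195 of 40546 genes tested that rose. Every day 8 mouse was above every day 6 mouse for each of the 7. In 60 groups of 4 mice (10 genes in 6 groups), no mouse stood so far from the other 3 that its gap passed the critical share of 0.829 of the range, where chance gives about 3 such groups.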

How the results depend on the processing

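The number of the 10 genes called stayed within 1.5 times of the stated count in most alternatives. With no fold minimum it was 1 on day 4 and 2 for Rap 4 against control. With a minimum of 1 it was 1 on day 6 and 3 for day 8 against day 6. With edgeR on all 24 mice it was 2 on day 6, where Psph, Shmt2 and Aldh18a1 were lost. With Xist as a covariate it was 0 for day 8 against day 6. Over the fits that each omit 1 mouse, the counts ran from 0 to 0 on day 4, 4 to 5 on day 6, 7 to 8 on day 8, 6 to 9 on day 13, 0 to 1 for Rap 4 against control, 8 to 9 for Rap 4 against day 13, 0 to 9 for day 8 against day 6 and 0 to 0 for day 13 against day 8. The cause of these moves was not tested.

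Of 526 values of called genes under another setting, 526 kept their sign and 462 their call, and 44 of the 64 lost calls were in day 8 against day 6. Of 604 values of genes not called, 9 were called and 25 changed sign without being called. On day 4, Aldh1l2 was at -0.01 with the replicate block, -0.04 without control D, -0.03 without day 4 mouse A and -0.14 without D, and Psph was at 0.05 with Xist, 0.02 without control B and 0.03 without day 4 mouse A or C. Over all fits that omit 1 mouse, Aldh1l2 ran from -0.14 to 0.12 and Psph from -0.07 to 0.03. On day 6, Pycr1 was at -0.13 with Xist. For Rap 4 against control, Asns was at -0.00 with DESeq2, all 24 mice, size factors, the replicate block, Xist and without Rap 4 mouse A, at -0.01 without the filter and without control B or D, and at -0.02 and -0.05 without Rap 4 mouse B or C (range over omitted mice -0.05 to 0.05). In that comparison Pck2 was at -0.01 without Rap 4 mouse A (range -0.01 to 0.09) and Shmt2 at 0.00 without C (-0.18 to 0.00). For day 13 against day 8, Phgdh was at 0.01 and 0.06 without day 13 mouse A or C (range -0.19 to 0.06), and Pycr1 at -0.05 without B (-0.05 to 0.31).

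The letters A to D were not taken to pair mice. Deviations from the group means of same-letter mice correlated between -0.453 and 0.286 over 18259 genes, never above 0.1 in all 4 pairs of a comparison, and at most 2 of 4 letters matched their own letter best. Day 13 against control came nearest, with 3 of 4 pairs above 0.1 and r from -0.00574 to 0.156. With the letter as a replicate block, 0, 5, 8, 7, 0, 9, 7 and 0 of the 10 genes were called on day 4, day 6, day 8, day 13, for Rap 4 against control, Rap 4 against day 13, day 8 against day 6 and day 13 against day 8. Psat1 on day 13 was the call lost with it (0.49).

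Over all genes, 172 were called on day 4, and 29 with all 24 mice, 107 with Xist, 1054 with no fold minimum and 35 with a minimum of 1. In the same order, the 332 of day 6 became 84, 195, 2519 and 86. With no minimum and a minimum of 1, the 1001 of day 8 became 3331 and 277, the 4101 of day 13 became 6696 and 1459, and the 352 of Rap 4 against control became 892 and 83 (162 with all 24 mice). The 5123 of Rap 4 against day 13 became 1807 with a minimum of 1. The 57 of day 8 against day 6 became 310 with DESeq2, 96 with all 24 mice, 192 without the filter, 0 with Xist, 104 with no minimum and 20 with a minimum of 1. With 1 mouse omitted it ran from 0 to 482, at 0 without day 6 mouse A, B, C or D or day 8 mouse A, 164 without day 8 mouse B, 55 without C and 482 without D. The 0 of day 13 against day 8 became 238 with DESeq2 and 1343 with all 24 mice. Omitting 1 mouse also moved the count of day 4 to 83 (control D), 84 (day 4 mouse B) and 107 (C), that of day 6 to 217 (day 6 mouse C), that of day 8 to 586 (day 8 mouse A) and that of day 13 against day 8 to 1 (day 13 mouse A or B) and 57 (D). The depth limits Pycr1 most, which had 54 to 541 counts per mouse.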
